A study of Drosophila melanogaster with 37 samples.

Results

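Of the 17559 genes in the deposited gene tables, 120 were cuticle protein genes by name: 70 named Cpr with a number, 26 named Twdl, 17 named Lcp and 7 named Ccp84. The names alone chose them, and no measured value entered the choice. The mRNA (PolyA) libraries belong to a study of sex-specific circular RNAs of Drosophila melanogaster and their control by Sxl, the switch gene of female development. They were made from untreated adults of the isogenic Canton-S strain, killed shortly after the first day of adult life, with 2 libraries for each of 6 groups: female head, male head, female body, male body, ovary and testis. Per the study's methods the testis samples held the whole inner male reproductive tract, with seminal vesicle, accessory gland and ejaculatory duct beside the testis. Nothing in the labels says that the 2 libraries of a group came from separate sets of flies, so the p-values below measure the spread between libraries, which may be technical.

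The insect cuticle is a layered coat of chitin fibres and proteins that the epidermis secretes at its outer face. It covers the body, the cornea of the eye, the tracheae and those inner organs that grow from ectoderm, among them the ends of the gut and the genital ducts. Most Cpr, Lcp and Ccp84 genes code for proteins with the Rebers-Riddiford domain, which binds chitin, and the Twdl genes code for Tweedle proteins, a separate family of cuticle proteins first known from mutants with a short, stout body. Many members serve the larval or pupal cuticle, which is the source of the name Lcp (larval cuticle protein), while others are laid down as the adult cuticle forms and thickens around eclosion.

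Cuticle protein genes sat next to one another. Runs of at least 3 members with gaps of at most 50000 bases held 91 of the 120 genes in 16 places of the dm6 genome, and 46 members lay on 3L, 32 on 3R, 28 on 2R, 8 on X and 6 on 2L. The longest run held 18 Lcp65A and Cpr65A genes (chr3L:6130386-6161589). The next held 12 Twdl genes (chr3R:26619118-26641054).

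What most members shared beyond their names was the letters in front of the gene. The motif TATAAA, the usual form of the TATA box that binds the TATA-binding protein, was looked for on both strands of the 60 bases before each annotated gene start. It was found in 79 of 120 members (65.8%) and in 2363 of 17435 genes of all kinds (13.6%), or 11.5% of all genes that passed the filter on expression described below. Within the stretch from 45 to 16 bases before the start it was found in 71 members (59.2%) and in 9% of all genes. Each family held it: 6 of 7 Ccp84 genes (85.7%), 12 of 17 Lcp genes (70.6%), 45 of 70 Cpr genes (64.3%) and 16 of 26 Twdl genes (61.5%) had a match somewhere in the 60 bases. A match is a description of the letters and was not tested as a promoter element.

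**Figure D1:**
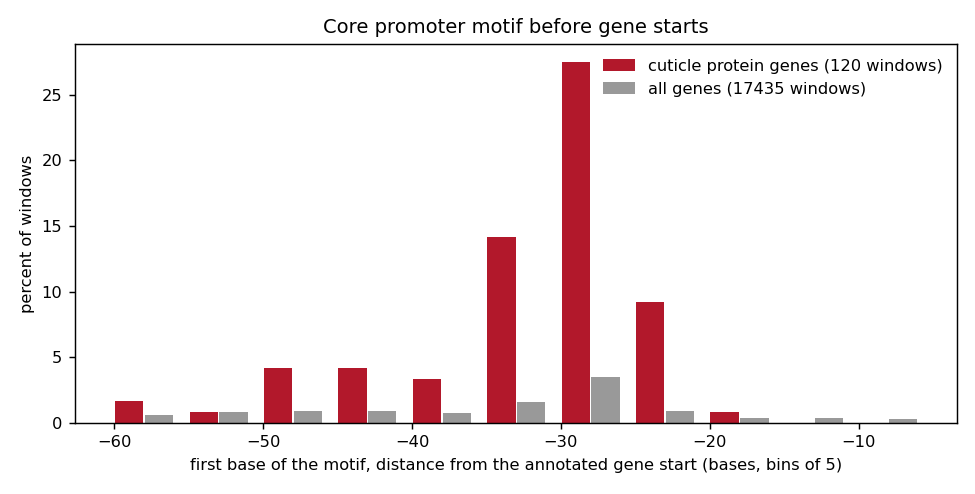
First base of the sense-strand core promoter motif, as distance in bases from the annotated gene start (bins of 5), against the percent of windows, for the 120 cuticle protein genes and for 17435 genes. The bin from 30 to 26 bases before the start held 27.5% of cuticle protein windows and 3.47% of all windows.

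The windows below belong to the members on which the later comparisons turn. They were read from the RefSeq dm6 assembly 5′ to 3′ on the strand of the gene, each ends at the base before the annotated start, and capitals mark the motif. First come genes of the male body and testis libraries, of which TwdlR, Cpr66Cb and Cpr78Cc carried the motif and TwdlS, TwdlH and Twdlalpha did not. Cpr67Fb, a further gene of these libraries, also carried it, starting 58 bases before the gene start, and is not printed. For Cpr56F and Cpr51A, also of these libraries, no match is given here.
TwdlR (chr3R:26634825-26634884, plus strand): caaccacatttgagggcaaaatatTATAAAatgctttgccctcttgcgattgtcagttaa
Cpr66Cb (chr3L:8336612-8336671, plus strand): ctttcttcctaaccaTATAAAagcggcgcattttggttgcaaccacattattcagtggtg
Cpr78Cc (chr3L:21300520-21300579, plus strand): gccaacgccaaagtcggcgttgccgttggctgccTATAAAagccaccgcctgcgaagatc
TwdlS (chr3R:26636628-26636687, plus strand): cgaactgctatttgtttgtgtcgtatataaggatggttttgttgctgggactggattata
TwdlH (chr3R:26633672-26633731, plus strand): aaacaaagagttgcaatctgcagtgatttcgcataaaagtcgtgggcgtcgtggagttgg
Twdlalpha (chrX:16742787-16742846, plus strand): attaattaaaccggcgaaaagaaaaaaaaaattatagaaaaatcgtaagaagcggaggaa

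Next come genes that were higher in the heads (Cpr72Ec, Cpr11B, Lcp65Ac, TwdlG), and then 3 with high levels in heads or bodies (Cpr100A, Cpr62Bc, Cpr92F). TwdlG and Cpr92F had no match, which says only that these 6 letters were not in this window.
Cpr72Ec (chr3L:16367341-16367400, minus strand): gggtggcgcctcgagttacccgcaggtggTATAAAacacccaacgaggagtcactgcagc
Cpr11B (chrX:12553064-12553123, plus strand): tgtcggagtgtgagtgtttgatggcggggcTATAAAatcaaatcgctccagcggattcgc
Lcp65Ac (chr3L:6144759-6144818, plus strand): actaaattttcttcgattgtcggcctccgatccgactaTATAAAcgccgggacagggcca
TwdlG (chr3R:4251342-4251401, minus strand): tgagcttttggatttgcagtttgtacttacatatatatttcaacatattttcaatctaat
Cpr100A (chr3R:30867461-30867520, plus strand): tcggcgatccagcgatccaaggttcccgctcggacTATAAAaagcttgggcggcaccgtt
Cpr62Bc (chr3L:1842085-1842144, minus strand): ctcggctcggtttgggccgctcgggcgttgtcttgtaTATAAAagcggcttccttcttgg
Cpr92F (chr3R:20669511-20669570, plus strand): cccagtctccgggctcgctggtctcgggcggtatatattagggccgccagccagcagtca

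Levels are given in TPM, the authors' measure of transcript abundance, which corrects for transcript length and sums to 1000000 in each library, so levels of different genes can be set beside each other. The number of reads behind a value is unknown. The libraries fitted their labels: the head marker genes (ninaE, trp and 5 more, 7 of 7 at 1 TPM or more) summed to between 16799 and 18499 TPM in the heads and at most 96 elsewhere, ovary markers to between 17731 and 51304 in female bodies and ovaries and at most 147 elsewhere, and testis markers to between 2435 and 10193 in male bodies and testes and at most 130 elsewhere. Body libraries therefore held gonad mRNA as well. Markers of accessory gland and ejaculatory duct (8 genes, since Acp70A and SP are 1 gene) summed to between 23168 and 29517 TPM in the testis libraries, 15226 and 16096 in male bodies, and 68 and 2461 in the other groups, where PebIII made nearly all of the sum in heads. Gut markers were high in bodies (3081 to 15115), muscle markers were present in all groups and lowest in the gonads (266 to 961), tracheal btl and trh summed to at most 0.533 in gonads, and the spermatheca genes reached 188 to 202 in female bodies and at most 8.36 elsewhere. Genes of 1 tissue were listed at low levels in others: ninaE stood between 10.8 and 23.9 TPM outside the heads.

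One mitochondrial transcript took a large share of TPM in most libraries, and this share differed between replicates. mt:ATPase8 took 15.7% to 57.6% of all TPM in 8 libraries and was listed at 0 in replicate 2 of the bodies, ovary and testis. In the heads it took 54.9% to 57.6% of replicate 1 and 39.2% to 40.7% of replicate 2. Among members at 1 TPM or more in both libraries of a group, the median ratio of replicate 2 to replicate 1 was 1.94 in female heads, 1.79 in male heads, 1.7 in female bodies, 2.36 in male bodies and 1.55 in testes, over 21 to 41 genes, against 1.37 to 1.93 over all genes in the same groups. In the ovaries 5 genes qualified, with a ratio of 0.797 against 1.76. The part of mt:ATPase8 in these ratios was not tested.

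Adult flies at this age expressed few of the 120 genes strongly. Of the members, 8 were listed at 0 in all 12 libraries, 63 reached 1 TPM in at least 1 library, 37 reached 10 TPM and 11 reached 100 TPM. A mean of at least 1 TPM over the 12 libraries, the filter used for the tests, was passed by 50 members: 35 of 70 Cpr, 8 of 26 Twdl, 4 of 17 Lcp and 3 of 7 Ccp84. Of all 17559 genes, 12882 passed it. The Cpr genes made 96.6% of the summed mean level of the members. Of the 50 genes, 24 had their highest group mean in a head, 20 in a body and 6 in the testis, and none in the ovary. The counts by level and by highest group were not made over all genes, so they describe the members alone.

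By mean TPM the male bodies held the most cuticle protein mRNA and the gonads the least, while the order of female head and female body depended on the scaling. Together the 120 genes summed to 2607 and 4610 TPM in the female body libraries, 3142 and 7891 in the male bodies, 1442 and 2857 in the female heads, and 1468 and 2796 in the male heads. They summed to 45.3 and 19.9 TPM in the ovaries and to 137 and 290 in the testes. Head and female body values overlapped, and both gonads stood below every head and body library. Once the 37 mitochondrial genes were taken out and TPM rescaled, the female heads stood at 3649 and 5072, the female bodies at 4591 and 4715, the male heads at 3489 and 4799 and the male bodies at 6143 and 8122. With median-of-ratios scaling, which sets each library by its typical gene and is one of the alternatives tried, the sums were 2265 and 3284 in female heads, 2416 and 2229 in female bodies, 2072 and 2798 in male heads and 5917 and 7069 in male bodies, so the mean of the female heads then stood above that of the female bodies. The gonads were at 7.63 to 317 on that scale. In a bulk sample, fewer cells of a type and less RNA per cell cannot be told apart.

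**Figure D2:**
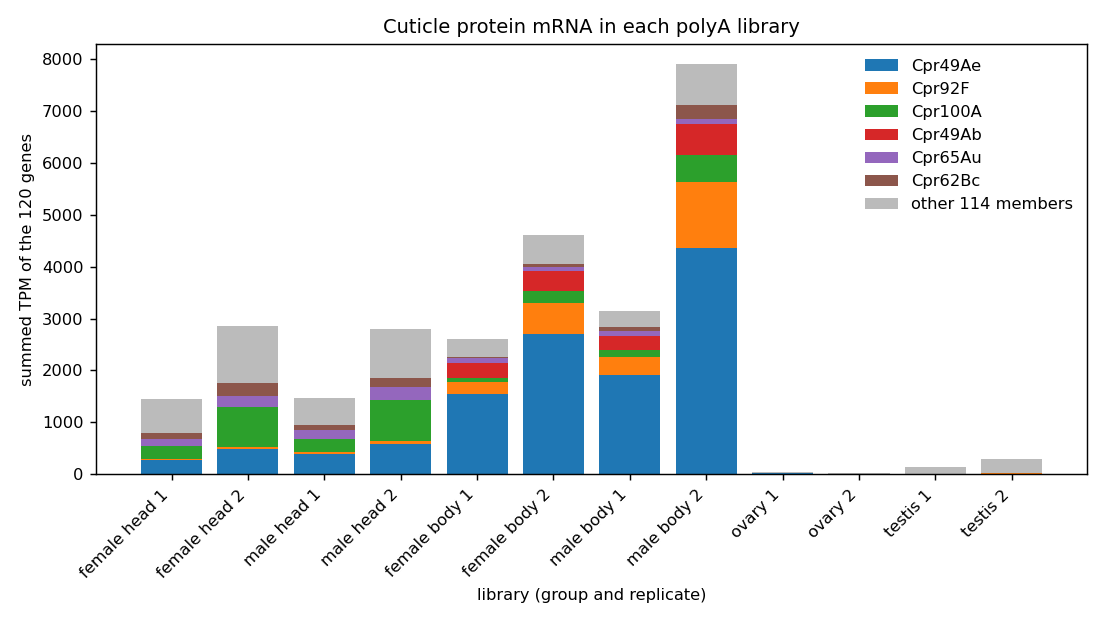
Summed TPM of the 120 cuticle protein genes in each of the 12 PolyA libraries, with the 6 highest genes in colour and the others in grey. Cpr49Ae made 55.3% to 61.1% of the sum in the body libraries, and the gonad bars are near 0 on this scale.

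A single gene carried most of the body sum. Cpr49Ae, a chitin-binding cuticle protein gene by its domain (chr2R:12402216-12405108), was at 1554 and 2692 TPM in female bodies and 1918 and 4366 in male bodies. It was at 277 and 496 in female heads and 391 and 591 in male heads. Without it the female bodies summed to 1053 and 1918 TPM, against 1165 and 2361 in the female heads. The highest 3 genes made 78.8% to 80.8% of the body sum, Cpr92F and Cpr49Ab being the others, and 45.4% to 57.9% of the head sum.

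**Figure D3:**
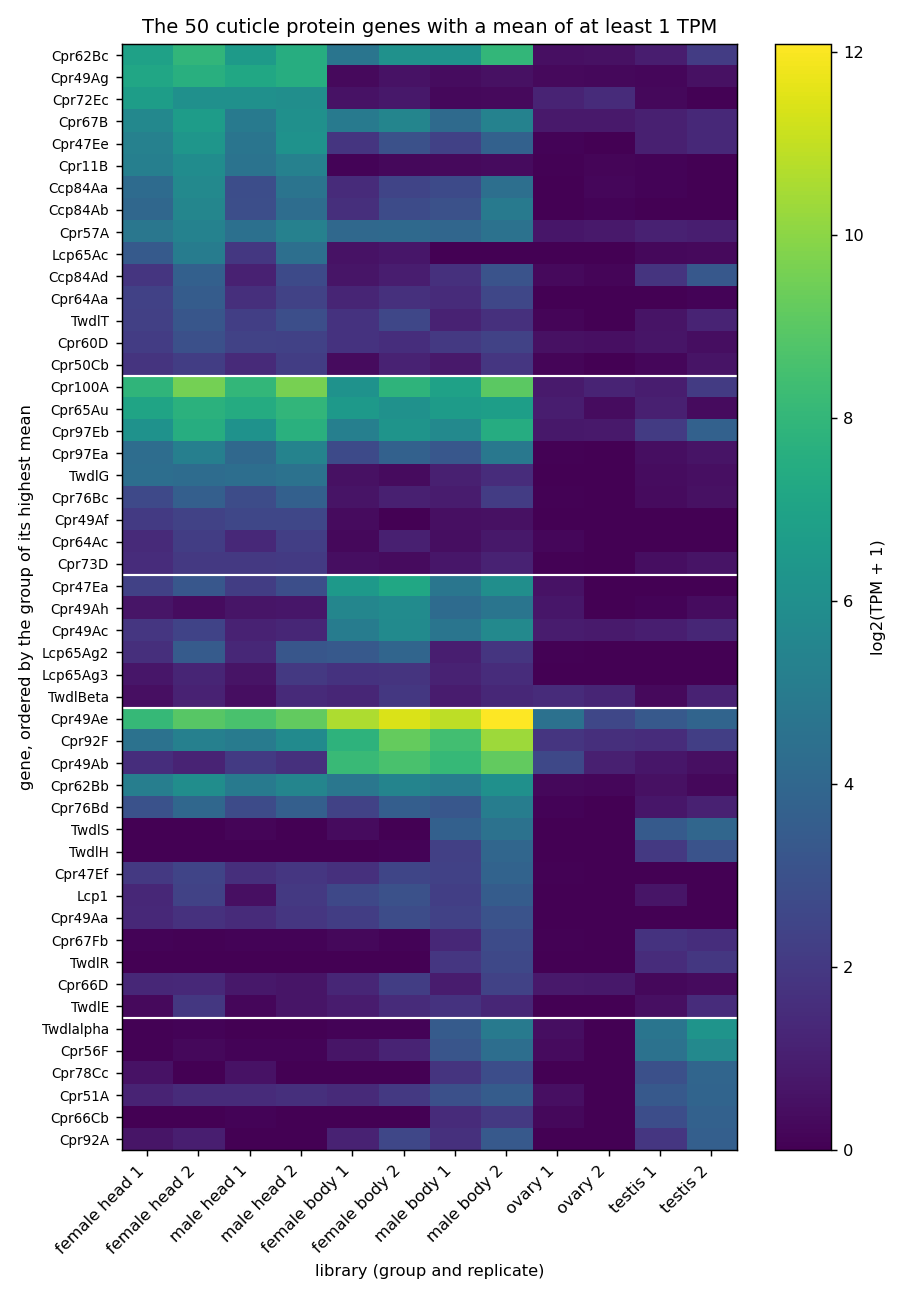
log2(TPM + 1) of the 50 cuticle protein genes with a mean of at least 1 TPM (rows, grouped by the group of the highest mean) in the 12 libraries (columns). Twdlalpha, Cpr56F, Cpr78Cc and Cpr66Cb in the lowest band, and TwdlS, TwdlH, TwdlR and Cpr67Fb in the band above it, are bright only in the male body and testis columns, and Cpr49Ae is the brightest row, with 1554 to 4366 TPM in the bodies.

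Some members were higher in the head and others in the body. The comparison of female head with female body called 15 members higher in the head, against 11.1% of all 12882 genes tested, and 7 lower, against 24.1%. In males, 10 members were higher in the head (background 11.7%) and 19 lower (background 30.9%). Some of the genes called, named below, passed the filter only through groups where they were high, so these counts are a description. Here and below a gene was called at an adjusted p under 0.05 in limma on log2(TPM + 1), and fold changes are differences on that log2 scale unless said otherwise. The 2 comparisons share no library, but both were read from 1 fit with a spread estimated over all 12 libraries, so their calls are not independent. Of the head-high genes, all 10 of the male comparison were among the 15 of the female one, and all 7 genes called higher in the female body were among the 19 of the male comparison. Genes called higher in the head in both sexes were 20% of the 50 members and 8.73% of all genes tested, and those called higher in both bodies 14% and 7.74%. Over all genes, 74.7% of the male head-high calls were also female ones, and 32.2% of the female body-high calls were also male ones. A fit that held the replicate number as a block (the replicate block) made 31 calls in females (background in either direction 55.8%) and 32 in males (background 60.2%). The median member difference was 0.48 in females and -0.26 in males, beside -0.38 and -0.22 over all genes.

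Some members were read in heads and hardly elsewhere. Cpr49Ag was at 140 and 199 TPM in female heads and 144 and 185 in male heads, and at most 0.494 in the 8 other libraries. Its difference between female head and female body was 6.95 (SE 0.32, adjusted p = 9.11e-07), and in males 6.89 (SE 0.32, adjusted p = 1.29e-06). Cpr11B was at 36.6 and 58.5 TPM in female heads and 23.6 and 38.7 in male heads, and at most 0.277 elsewhere, a difference of 5.36 in females (SE 0.31, adjusted p = 2.01e-06) and 4.64 in males (SE 0.31, adjusted p = 1.53e-06). No head library of these genes came near a body library. Both genes stood under 1 TPM in all 8 libraries outside the heads. They passed the filter only through the heads, so their calls are a description. Cpr11B lies inside the gene CG43921 of the opposite strand, with no shared exon base. That gene was also at 21 to 32.9 TPM in the heads and at most 1.62 elsewhere, and since the PolyA counting is not stated to use strand, reads of the shared stretch cannot be told apart.

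Cpr72Ec, whose protein is a component of the corneal lens, was at 105 and 65.3 TPM in female heads and 66.4 and 61.1 in male heads, and between 0.209 and 0.698 in the bodies. It rose by 5.72 from body to head in each sex (SE 0.31, adjusted p = 1.57e-06 in females and 1.51e-06 in males). Outside the heads Cpr72Ec averaged under 1 TPM, so it too passed the filter only through the heads. Other genes of the lens were high in the same libraries: retinin was at 2911 to 6112 TPM in heads and at most 5.98 elsewhere, and Crys (listed as Cry), which codes for the lens protein drosocrystallin, was at 64.6 to 107 and at most 2.47 elsewhere. Cpr66D, the other member known from the corneal lens, did not share that pattern. It was at 1.56 and 1.67 TPM in female heads, 0.718 and 0.629 in male heads, 1.49 and 3.52 in female bodies and 0.868 and 4.21 in male bodies, with overlapping values in females and higher values in the male body than the male head, and neither difference passed the threshold (-0.36 with adjusted p = 0.613 and -0.9 with adjusted p = 0.126 in limma).

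TwdlG was the Tweedle gene called higher in both heads. TwdlT, at 3.7 and 6.37 TPM in male heads and 1.2 and 2.25 in male bodies, was called in males with the replicate block only (1.14, adjusted p = 0.0525 without it and 0.00447 with it). TwdlG stood at 20 and 18.1 TPM in female heads, 19.9 and 22.5 in male heads, 0.464 and 0.294 in female bodies, and 1.09 and 1.87 in male bodies, a difference of 3.86 in females (SE 0.25, adjusted p = 2.97e-06) and 3.17 in males (SE 0.25, adjusted p = 2.29e-06). At most 1.87 TPM in the bodies, TwdlG passed the filter mainly through the heads, so these head calls are a description. Lcp65Ac, named for a larval cuticle protein cluster, was at 9.75 and 33.3 TPM in female heads and 2.93 and 20.3 in male heads, at 0.52 and 0.645 in female bodies, and listed at 0 in both male bodies. Its difference was 3.6 in females (SE 0.7, adjusted p = 0.00289) and 3.19 in males (SE 0.7, adjusted p = 0.00366). Lcp65Ac was under 1 TPM in every body library and passed the filter mainly through the heads, so its calls too are a description. Cpr47Ee, at 25.2 to 80.9 TPM in heads and 2.6 to 12.3 in bodies, was 12.5-fold higher by mean TPM in the female head and 5.83-fold higher in the male head. The male call rested on 2 libraries: without male head replicate 2 the difference was 1.68 and without male body replicate 1 it was 1.69, neither passing the threshold.

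Some head-high genes of the female comparison were not called in males. The pair Ccp84Aa and Ccp84Ab was at 18 and 50 and at 15.7 and 45.5 TPM in female heads, and at 1.84 and 4.5 and at 2.09 and 5.81 in female bodies, a difference of 2.98 (SE 0.74, adjusted p = 0.0106) and 2.6 (SE 0.74, adjusted p = 0.0211). In males both genes had overlapping values, at 6.29 and 24 TPM in heads and 5.66 and 20.6 in bodies for Ccp84Aa. The female calls were lost without female head replicate 2 (2.26 and 1.86) and without female body replicate 1 (2.5 and 2.03). The 2 genes share 39.4% and 35.5% of their stretches of 50 bases with each other or with Ccp84Ad, so how reads were split between them is uncertain.

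**Figure D4:**
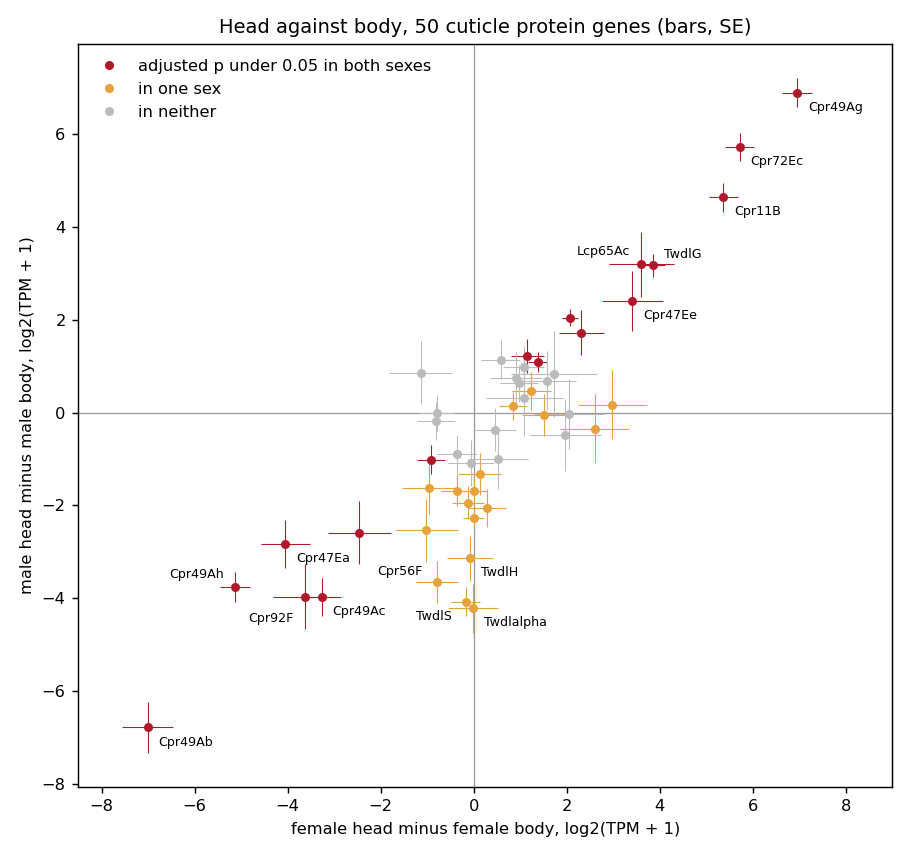
Difference between head and body on the log2(TPM + 1) scale for the 50 cuticle protein genes tested, females on the x axis and males on the y axis, with bars of 1 SE and colour for an adjusted p under 0.05 in both, 1 or neither sex. Cpr49Ag stands at 6.95 and 6.89 and Cpr49Ab at -7.01 and -6.78, while Twdlalpha, TwdlS, TwdlH and Cpr56F lie between -0.79 and -0.02 in females and between -4.21 and -3.14 in males.

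Of the 7 genes called higher in the female body, 5 came from 1 run on chromosome arm 2R, and the same 5 were among the 19 called in males. Its 8 Cpr49A genes (chr2R:12376626-12415170) summed to 1932 and 3200 TPM in female bodies, 2241 and 5037 in male bodies, 428 to 788 in heads, and at most 28.9 in gonads. Of the 7 tested, Cpr49Aa, Cpr49Ab, Cpr49Ac, Cpr49Ae and Cpr49Ah were called higher in both bodies, and Cpr49Af and Cpr49Ag higher in both heads. Neighbours in the run therefore differed in direction.

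Cpr49Ab had the largest difference in size among the members called higher in the body, in both sexes. It was at 294 and 391 TPM in female bodies and 276 and 587 in male bodies, and at 1.31 to 3.15 in heads. The head minus body difference was -7.01 in females (SE 0.55, adjusted p = 8.57e-06) and -6.78 in males (SE 0.55, adjusted p = 2.99e-06). Cpr49Ah was at 46.1 and 55.4 TPM in female bodies, 17.5 and 24.7 in male bodies and at most 0.657 in heads, and Cpr49Ac was at 25.1 to 54.9 in bodies and 1.21 to 4.38 in heads. Cpr49Ae had its own call of -2.46 in females (SE 0.68, adjusted p = 0.0183), lost without female head replicate 1 (-2.04) and without female body replicate 2 (-2.07), and of -2.59 in males (SE 0.68, adjusted p = 0.0105), lost without male head replicate 1 (-2.29) and without male body replicate 2 (-1.99). Median-of-ratios scaling left the female difference at -1.46 with no call.

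Cpr92F, another member with a chitin-binding domain, was at 227 and 605 TPM in female bodies, 345 and 1264 in male bodies, 22.6 and 37.3 in female heads and 31.6 and 54.2 in male heads. The head was lower by a difference of -3.63 in females (SE 0.69, adjusted p = 0.00247) and -3.96 in males (SE 0.69, adjusted p = 0.000759). The adult cuticle gene Acp65Aa, no member by name, was also higher in the bodies, at 682 to 1823 TPM in bodies and 6.49 to 7.28 in heads. Acp1, a further adult cuticle gene, was at 1355 to 3976 in heads and 276 to 1976 in bodies.

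The split between head and body depended on how the libraries were scaled. With median-of-ratios scaling, 27 members were higher in the female head and 5 lower, and all genes then had a median of 0.02 in place of -0.38. Over all 12882 genes, 3458 were then higher and 2597 lower, in place of 1430 and 3101. Without the mitochondrial genes the counts were 27 and 7 in females, and 16 and 19 in males. Over all genes they were then 2649 and 3114 in females, and 3795 and 4076 in males. Without female head replicate 2 or without female body replicate 1, 9 members were higher in the female head.

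Other genes of cuticle building were mixed in this comparison. The shares of all genes higher and lower in the head were 11.1% and 24.1% in females, and 11.7% and 30.9% in males. Of 13 other cuticle proteins tested, 6 were higher in the female head and 2 in the female body, and 4 and 1 in males. Of 20 tanning and pigment genes, which harden and darken cuticle but also serve the eye and the nervous system, 8 were higher in the female head and 5 in the female body, with 7 and 2 in males. Pu, the first enzyme of pteridine synthesis, was at 346 to 483 TPM in heads and 18.5 to 51.2 in bodies (4.15 in females, adjusted p = 1.09e-05). Of 24 chitin genes, 1 was higher in the female head and 4 in the bodies of each sex, namely Cht8, Cht9, CS-2 and Cht4. CS-2 is the chitin synthase of the gut lining, and gut markers were high in the same bodies, so their part in that call was not tested. Of 15 moulting genes, 3 and 4 were higher in the female and male head and 1 and 0 in the body. The replicate block called more genes of these lists, as it did over all genes (55.8% in either direction in females and 60.2% in males). The median difference of the chitin genes in females was 0.44 with and without it. In females it called 9 chitin genes higher in the head and 5 in the body, 10 and 2 other cuticle proteins, 12 and 6 tanning genes and 6 and 2 moulting genes. In males it called 2 and 5, 8 and 1, 10 and 3, and 8 and 1, in the same order.

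No member passed the test between female and male heads. Of 50 tested, 0 were called higher in the female head (background 0.0388%) and 0 lower (background 0.0543%) in limma, 1 had an unadjusted p under 0.05, and with the replicate block 0 were called (background 0.101%). Median-of-ratios scaling with the block called 1. The pathway lists gave 0 calls as well. Of the head genes above, Cpr49Ag, Cpr11B and Cpr72Ec each had overlapping values in the female and male heads. Between libraries of the same number, Cpr11B and Cpr72Ec were higher in the female head in 2 of 2 pairs, with differences of 0.6 (SE 0.31) and 0.38 (SE 0.31) and an adjusted p of 1 in limma with and without the block.

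Bodies differed by sex in a few members. Of 50, 3 were higher in the female body (background 17.3%) and 10 in the male body (background 25.1%). The block raised this to 4 and 18 (background in either direction 66%), and median-of-ratios scaling gave 1 and 32 (2001 and 6486 over all genes), with a median of all genes of -0.74 in place of -0.01. The median member difference was -0.57. The female-high side held Lcp65Ag2, Cpr47Ea and Cpr49Ah.

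Cpr47Ea was at 91.2 and 144 TPM in female bodies and 26.1 and 61.6 in male bodies, a difference of 1.49 (SE 0.52, adjusted p = 0.0421). Cpr49Ah differed by 1.24 (SE 0.32, adjusted p = 0.00995), and Lcp65Ag2, at 9.5 and 14.5 TPM in female and 1.02 and 2.62 in male bodies, by 2.24 (SE 0.68, adjusted p = 0.0241). In none of them did the groups overlap. Lcp65Ag2 shares 62% of its stretches of 50 bases with Lcp65Ag1 or Lcp65Ag3, so how reads were split between them is uncertain. All 3 calls were lost without female body replicate 2 (1.16, 1.11 and 1.95) and without male body replicate 1 (0.88, 1.0 and 1.82), in the order given. Median-of-ratios scaling left Cpr47Ea at 0.55 and Cpr49Ah at 0.32, with no call. Both calls were also lost with 0.1 in place of 1 added to TPM (1.51 and 1.28). The same held in a fit of these groups alone (1.49 and 1.24), and for Cpr47Ea with no filter (1.49). Cpr47Ea shares 19.7% of its exon bases with Or47a, an odorant receptor gene of the opposite strand that was at most 0.105 TPM in any library.

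A set of 9 members formed the male side of both sex comparisons. They are Twdlalpha, TwdlS, TwdlH, TwdlR, Cpr56F, Cpr66Cb, Cpr67Fb, Cpr78Cc and Cpr51A: all 9 were among the 10 genes higher in the male than the female body and among the 11 genes higher in testis than ovary, 2 comparisons that share no library. Both were read from 1 fit with a spread estimated over all 12 libraries, so their calls are not independent. These 9 were 18% of the members tested, below the 24.1% of all genes tested that were male-high in both comparisons, so the overlap does not set the members apart. All but Cpr51A averaged under 1 TPM over the 8 libraries of heads, female bodies and ovaries and passed the filter only through the male groups, so their count is a description. Of 50 members, 11 were higher in the testis (background 30.5%) and 1 in the ovary (background 29.5%). The block gave 16 and 2 (background in either direction 75.6%). Median-of-ratios scaling gave 22 and 0 (6322 and 2564 over all genes), with a median of all genes of -0.67 in place of 0.07. The median member difference was -0.31. The ejaculatory duct grows from ectoderm and is lined with cuticle, and the testis libraries contained it beside testis, seminal vesicle and accessory gland. Which of these parts the mRNA came from was not tested.

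Twdlalpha was the highest of the 9. It was at 25.4 and 74.5 TPM in testes and 10.1 and 29.8 in male bodies, and at most 0.35 in the 8 libraries of heads, female bodies and ovaries. Its difference between female and male body was -4.09 (SE 0.53, adjusted p = 0.000113) and between ovary and testis -5.27 (SE 0.53, adjusted p = 1.27e-05). The gene shares 72 of its 1354 exon bases (5.32%) with CG32568 of the same strand, which was at 44.9 and 112 TPM in testes, so a small part of its reads may be counted for either gene.

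Cpr56F was second, at 22.5 and 50.1 TPM in testes, 7.98 and 19.5 in male bodies, 0.634 and 1.33 in female bodies and at most 0.274 elsewhere. It differed by -2.8 between female and male body (SE 0.45, adjusted p = 0.000553) and by -4.94 between ovary and testis (SE 0.45, adjusted p = 5.75e-06). CkIIbeta2, a gene of the opposite strand within the same stretch and with no shared exon base, was at 111 and 120 TPM in testes and 36.7 and 44.9 in male bodies. Reads of the shared stretch cannot be told apart.

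The Tweedle run on 3R was read almost wholly in male bodies and testes. Its 12 genes summed to 20.3 and 46.2 TPM in male bodies and 18.5 and 31.3 in testes, and to at most 0.297 in each of the 8 other libraries. Of the 12, 8 were listed at 0 in all 6 female libraries and 7 were above 0 in both testis libraries. TwdlS, TwdlH and TwdlR passed the filter and lie side by side in the run.

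TwdlS was at 12.1 and 22.8 TPM in male bodies, 9.85 and 15.1 in testes, 0.264 and 0 in female bodies, and listed at 0 in both ovaries. The body difference was -3.97 (SE 0.31, adjusted p = 2.96e-06) and that of ovary and testis -3.72 (SE 0.31, adjusted p = 2.47e-06). TwdlH was at 3.87 and 15 TPM in male bodies and 3.08 and 7.44 in testes, and at most 0.0837 elsewhere. TwdlR was at 2.73 and 5.15 in male bodies and 1.9 and 2.95 in testes, and listed at 0 in the other 8 libraries. The body differences were -3.06 for TwdlH (SE 0.49, adjusted p = 0.000475) and -2.26 for TwdlR (SE 0.23, adjusted p = 1.86e-05). Among the members under the filter, chosen here after their values were seen, TwdlP of the same run was at 2.58 and 3.73 TPM in testes and 0.811 and 1.37 in male bodies, TwdlN at 0.614 and 1.39 and at 0.585 and 1.28, and Cpr31A, elsewhere on 2L, at 3.23 and 4.88 and at 1.09 and 2.47.

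**Figure D5:**
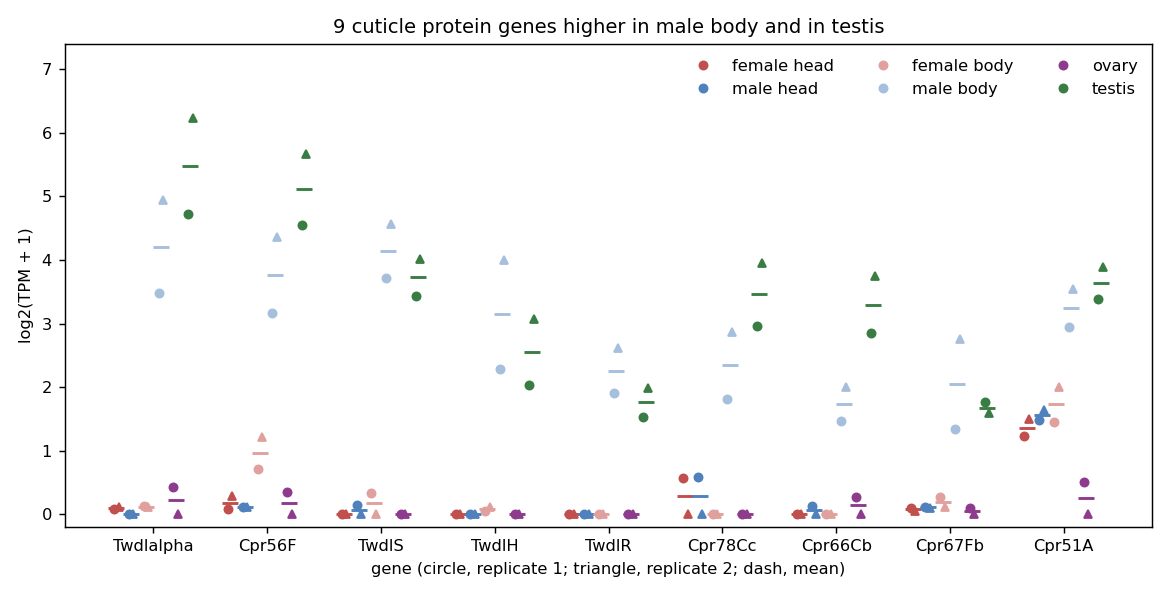
log2(TPM + 1) of the 9 genes higher in male than female body and in testis than ovary (x axis), for the 6 groups in colour, with each library as a point and the mean as a dash. Twdlalpha is highest in testis at 25.4 and 74.5 TPM, and Cpr51A is the only one of them above 1 TPM in every head library.

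Cpr66Cb and Cpr78Cc, both Rebers-Riddiford genes of 3L, were low and highest in the testis libraries. Cpr66Cb was at 6.22 and 12.4 TPM in testes, 1.77 and 3.02 in male bodies and at most 0.209 elsewhere. It differed by -3.16 between ovary and testis (SE 0.29, adjusted p = 5.09e-06). Cpr78Cc was at 6.82 and 14.5 TPM in testes, 2.5 and 6.32 in male bodies, at most 0.497 in heads, and listed at 0 in female bodies and ovaries, a difference of -3.46 between ovary and testis (SE 0.41, adjusted p = 4.42e-05). Cpr67Fb was at 2.39 and 2.01 in testes and 1.53 and 5.74 in male bodies, and 85.1% of its exon bases lie under CR45171 of the opposite strand, which was at 1.85 and 6.73 TPM in ovaries too, where Cpr67Fb was at 0.0654 and 0.

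Cpr51A differed from the other 8 in its spread over tissues. It was at 9.45 and 13.8 TPM in testes and 6.69 and 10.6 in male bodies, but also at 1.34 to 2.12 in heads and 1.73 and 3.02 in female bodies. Its values in the ovaries were 0.423 and 0. The body difference was -1.51 (SE 0.34, adjusted p = 0.00485). That call was lost with a pseudocount of 0.1 (-1.84) and in a fit of the 2 body groups alone (-1.51). Cpr51A and CG30197, a gene of the opposite strand at 117 to 512 TPM in heads and bodies and at most 43.7 in gonads, share genomic bases but no exon base.

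The tenth gene of the male body was TwdlG, at 0.464 and 0.294 TPM in female bodies and 1.09 and 1.87 in male bodies (-0.83, SE 0.25, adjusted p = 0.0206). That call was lost without female body replicate 1 (-0.92), without female body replicate 2 (-0.74) and without male body replicate 2 (-0.61). In the gonads the other 2 genes of the testis were Cpr92A, at 2.73 and 11.7 TPM in testes and listed at 0 in ovaries (-2.78, SE 0.68, adjusted p = 0.00555), and Ccp84Ad, at 2.52 and 9.02 and at 0.232 and 0.119 (-2.34, SE 0.77, adjusted p = 0.0243). Cpr92A averaged 0.992 TPM over the 8 libraries of heads, female bodies and ovaries. It passed the filter only through the male body and testis, so its call is a description.

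Cpr72Ec, the lens gene, was the only member higher in the ovary, at 1.29 and 1.79 TPM against 0.185 and 0.0498 in testes (1.18, SE 0.31, adjusted p = 0.00882). The call was lost without ovary replicate 2 (1.04) and without testis replicate 2 (1.1), and median-of-ratios scaling left 0.6 with no call. Its head level was 61.1 to 105 TPM. Of the other lens genes, Cpr66D was at 0.75 and 0.715 TPM in ovaries and 0.187 and 0.285 in testes with no overlap (0.49, SE 0.42, adjusted p = 0.351 in limma), and retinin was at 4.65 and 5.11 in ovaries and 3.64 and 4.23 in testes.

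In 8 members the sex difference of the body was below that of the head, by a test of the difference itself (background 22%), and in 1 it was above (background 10.5%). With the block 18 were called (background 55.9%), and with median-of-ratios scaling 0 were above and 33 below (1454 and 5543 over all genes). Without the mitochondrial genes 0 were above and 20 below (2788 and 3282 over all genes). The 8 were the genes named for both male comparisons except Cpr51A. They were at most 0.497 TPM in every head library, so this test mostly restates the body difference. The values were -4.19 for Twdlalpha (SE 0.75, adjusted p = 0.00144), -3.9 for TwdlS (SE 0.43, adjusted p = 6.62e-05) and -2.87 for Cpr56F (SE 0.64, adjusted p = 0.0057). Cpr49Ah, the 1 above, stood at 1.39 (SE 0.45, adjusted p = 0.0388) and kept its call in 5 of 16 alternatives. The call of Cpr67Fb (-1.82, SE 0.5, adjusted p = 0.0181) was lost without female head replicate 1 (-1.8), without male head replicate 2 (-1.82) and without female body replicate 2 (-1.74). Without male body replicate 1 the count was 14 below and 0 above.

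The other lists of cuticle building gave more calls between the bodies with the replicate block than without it, as did all genes. Of all genes tested, 17.3% were higher in the female and 25.1% in the male body, and 66% were called in either direction with the block. For ovary and testis these shares were 29.5%, 30.5% and 75.6%. Of 13 other cuticle proteins, 1 was higher in the female body (Pcp, a pupal cuticle gene, at 4.61 and 6.2 TPM against 0.592 and 1.25) and 0 in the male body. Of 24 chitin genes, 1 was higher in females (Cht2) and 0 in males. Of 20 tanning and pigment genes, 3 were higher in each sex: y, the yellow gene of dark pigment, at 1.72 and 3.58 TPM in female and 7.66 and 19.5 in male bodies, was lower in females by a difference of -1.92 (adjusted p = 0.00199), and yellow-g and yellow-g2, which are known from the eggshell, were at 129 to 264 TPM in female bodies and 153 to 223 in ovaries. Between the gonads the calls were 1 for ovary and 2 for testis among other cuticle proteins, 3 and 7 among chitin genes and 6 and 4 among tanning genes. Of 15 moulting genes, 3 were higher in the female and 1 in the male body, and 5 in the ovary and 3 in the testis, where grh, a regulator of epidermal genes, was at 4.47 and 7.64 TPM against 0.0868 and 0.0506 in ovaries (-2.69, adjusted p = 0.00156). With the block the calls higher in the female and the male body were 1 and 4 among other cuticle proteins, 1 and 6 among chitin genes, 4 and 9 among tanning genes and 6 and 2 among moulting genes. In the gonads they were 1 and 4, 4 and 9, 7 and 6, and 8 and 5, in the same order.

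Against the gonads, many of the members tested were higher in the body. Of 50, 24 were higher in the female body than in the ovary (background 11.5%) and 0 lower (background 0.116%), with 28 calls with the block (background 17.2%). Without female body replicate 2 or without ovary replicate 2, 15 were called. In males 26 were higher in the body than in the testis (background 16.1%) and 2 lower (background 20.4%), with 34 calls with the block (background 59.3%). The 20 genes called higher in both bodies made 83.3% of the female list of 24 and 76.9% of the male list of 26, against 79.8% and 56.8% over all genes. The median member difference was 1.63 in females and 1.34 in males, beside -0.25 and -0.11 over all genes.

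Cpr49Ab fell from the male body values above to 0.648 and 0.406 TPM in testes, an 819-fold difference by mean TPM and 8.05 on the log2 scale (SE 0.55, adjusted p = 3.03e-05). Cpr49Ae was at 22.1 and 4.94 TPM in ovaries and 9.3 and 13.7 in testes, below the body by 7.45 in females (SE 0.68, adjusted p = 9.85e-05) and 7.88 in males (SE 0.68, adjusted p = 8.1e-05). Cpr92F was at 2.11 to 2.64 in ovaries and 1.86 to 3.79 in testes. Cpr100A, highest in heads at 237 to 778 TPM, was at 69.9 and 234 in female bodies, 122 and 521 in male bodies and at most 3.3 in the gonads. Cpr65Au was at 68.5 to 251 in heads and bodies and at most 1.09 in gonads, and Cpr62Bc at 25.3 to 259 and at most 3.45.

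The 2 genes higher in the testis than in the male body were Cpr66Cb and Cpr56F. Cpr66Cb differed by -1.56 (SE 0.29, adjusted p = 0.00267), with values that did not overlap, and the call was lost with a pseudocount of 0.1 (-1.88) and in a fit of these groups alone. Cpr56F differed by -1.35 (SE 0.45, adjusted p = 0.0414), and the call was lost without male body replicate 1 (-0.76) and without testis replicate 2 (-0.79), and likewise with a pseudocount of 0.1 (-1.42), with no filter and in a fit of these groups alone. In the same male bodies the testis markers summed to 2435 and 2752 TPM and those of accessory gland and duct to 15226 and 16096, against at least 7592 and 23168 in the testis libraries. Their part in the levels of these genes was not tested.

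Other cuticle genes were also higher in the bodies. The shares of all genes higher and lower in the body were 11.5% and 0.116% in females, and 16.1% and 20.4% in males. With the block 17.2% and 59.3% were called in either direction. Of 13 other cuticle proteins 8 were higher in the female body than in the ovary and 9 higher in the male body than in the testis, with 0 lower in either. Of 24 chitin genes 15 and 16 were higher and 0 lower, among them verm and serp, chitin deacetylases of the tracheae and epidermis, at 25.6 to 133 TPM in bodies and 0.635 to 8.63 in gonads. Of 20 tanning genes 14 and 14 were higher, and 1 and 0 lower. Of 15 moulting genes 1 and 1 were higher, and 0 and 1 lower, and with the block 3 and 5 higher, and 0 and 2 lower.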

How the data were processed

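The authors trimmed reads with cutadapt 1.15 or 1.18 and mapped them with STAR 2.6.1a to dm6. The tool that made the gene tables is not given in the sources used here; per the labels' processing notes Cufflinks, StringTie 2.0 and UMI-tools were among those used. The deposited tables hold TPM, FPKM and a coverage signal per gene for each PolyA library. TPM sums to 1000000 in each, and the depth in reads is unknown. The deposited FPKM values served as an alternative, and the deposited coverage only as a ratio to TPM (4.16 to 11 per library). The other 25 of 37 samples were not analysed here.

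One limma model (limma 3.58.1, R 4.3.3) was fitted to log2(TPM + 1) of 12882 genes, those whose TPM averaged 1 or more over the 12 libraries, with 1 coefficient per group, moderated variances with a trend, and two-sided p-values adjusted by Benjamini-Hochberg within each comparison. Python 3.11.15, pandas 2.3.3, numpy 2.4.6 and matplotlib 3.10.9 did the rest, and the fit was tested on simulated data. Same-numbered libraries deviated together from their group means over all genes tested (correlations of 0.345 to 0.769, median 0.473, above 0.1 in 15 of 15 pairs of groups). Over the members tested the correlations were -0.0634 to 0.851 (median 0.205, above 0.1 in 10 of 15 pairs). The main fit, which gave the calls unless said otherwise, had no term for the replicate number. The replicate block, which pairs libraries by that number, was an alternative. This pairing was read from the data and no label explains it. Alternatives were a pseudocount of 0.1, no filter, FPKM, median-of-ratios scaling over the 6381 genes at 1 TPM or more in every library, removal of 37 mitochondrial genes, the replicate block, the groups compared alone, and leaving out each library.

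Members named were those with the highest 5 group means, up to 5 largest called changes in each direction of each comparison, the 5 smallest adjusted p-values of the difference of sex differences, the 2 highest of each name group, and Cpr66D and Cpr72Ec. From each other list up to 4 genes were taken by level or by change. A few more were named for context after their values were seen. Members and lists were chosen with earlier results of these data known. Sequences and overlaps were read from the RefSeq dm6 genome, in which all 120 members had the same coordinates in a current Ensembl annotation.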

Additional observations from a re-analysis of the deposited data

Results flagged for a closer look

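In 5 genes the difference between the sexes in the body was tested to differ from that in the head (limma, adjusted p under 0.05). The difference of the differences was -4.19 for Twdlalpha, -3.9 for TwdlS, -3.06 for TwdlH, -2.87 for Cpr56F and -2.26 for TwdlR on the log2(TPM + 1) scale. All 5 were higher in both male body libraries than in both female ones. They were at most 0.215 TPM in the heads, where little could differ, so the test mostly restates the difference in the body (-3.06 for TwdlH and -2.26 for TwdlR in the body alone). All 5 averaged under 1 TPM over the 8 libraries outside male body and testis and passed the filter through those groups.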

How the results depend on the processing

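Calls in the body comparison of the sexes numbered 13, and 22 with no filter, 26 on FPKM, 33 with median-of-ratios scaling, 23 without mitochondrial genes, 22 with the replicate block and 35 with the replicate block and median of ratios. Calls over all genes moved as well, from 5473 to 6255, 8291, 8487, 7802, 8500 and 9663 in the same order. Between ovary and testis 12 became 22 with a pseudocount of 0.1, 31 with no filter, 22 with median of ratios, 27 with the block and median of ratios, and 23 with these groups alone. The matching calls over all genes were 7738, and 8141, 9008, 8886, 9792 and 7288. The 9 calls of the difference of sex differences became 16 with no filter, 22 on FPKM, 33 with median of ratios, 20 without mitochondrial genes, 18 with the replicate block and 34 with the block and median of ratios. Over all genes 4191 calls became 4742, 6580, 6997, 6070, 7207 and 8408 in that order. Female head against female body gave 34 calls without mitochondrial genes in place of 22, and the heads of the sexes gave 1 with the block and median of ratios in place of 0. For all genes these were 5763 in place of 4531, and 31 in place of 12. With no filter 112 members and 16916 genes in all were tested, in place of 50 and 12882, and without mitochondrial genes 12861 genes were tested. For the other gaps the cause was not tested. The mean summed level was 4360 in female heads and 4144 in male heads without mitochondrial genes, and 2168 in female bodies in FPKM.

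Leaving out 1 library at a time gave 9 to 16 calls between bodies, 10 to 13 between gonads, 15 to 20 and 24 to 28 between head and body in females and males, 15 to 23 and 22 to 33 between body and gonad, 8 to 14 for the difference of sex differences and 0 between heads. Of 1308 comparisons over the 106 values of named genes, 1217 kept direction and call, 91 lost the call (56 of them with a library left out) and 0 reversed. The replicate block ended 0 of these calls. Counts with a library left out, here and above, are given without the share over all genes and describe the members alone. With 2 libraries a group and the depth in reads unknown, no floor can be set for genes listed at 0.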
